A study of Mus musculus with 3 samples.

Results

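Axon guidance genes encode secreted and membrane-bound cues and the receptors that read them; 69 of them were measured among 19938 genes on 3 single-colour Affymetrix arrays of sorted mouse bone marrow stroma. They were taken by gene symbol from probe sets annotated to a single gene: semaphorins (Sema), plexins (Plxn), neuropilins (Nrp), ephrins (Efn), Eph receptors, Slits, Robo receptors, netrins (Ntn) and the Unc5 family, each gene read from its probe set with the highest mean. CXCL12-abundant reticular (CAR) cells, sorted from 2 CXCL12-GFP knock-in mice, fill 2 replicate arrays. The third holds PDGFRa+ Sca+ CD45- lineage- cells, called PaS here, combined from 3 Prx1-Cre Rosa26Ai9/+ Cxcl12gfp/+ mice and hybridised as 1 pooled sample. All groups carry GFP at the Cxcl12 locus, the tissue was marrow of tibia, femur and pelvis at baseline, and no treatment is labelled. Only the PaS mice carry the Prx1-Cre transgene, whose promoter is active in limb mesenchyme, and the Rosa26 reporter, so genotype and cell type cannot be told apart.

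Guidance molecules were named for steering growing axons, and outside the nervous system they also regulate vessel growth, cell adhesion and migration, bone turnover and the movement of blood cells. Class 3 semaphorins are secreted and mostly bind a neuropilin, which has little signalling ability of its own and pairs with a plexin; the membrane-bound semaphorins of the other classes usually bind plexins directly. Ephrins are tethered to the cell surface and signal to Eph receptor tyrosine kinases on neighbouring cells. Slits are secreted ligands of Robo receptors, and netrins are laminin-related ligands of Dcc, neogenin and the Unc5 receptors.

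CAR cells had higher levels of 16 of the 69 guidance genes and lower levels of 5, by limma at an adjusted p under 0.05 over all genes, that is 23.2% and 7.25%, beside 8.56% and 6.42% of all genes. The share of members that fell was thus near that of all genes. By size alone, with no test, 18 members (26.1%) were at least 2-fold higher in both CAR arrays than on the PaS array and 5 (7.25%) at least 2-fold lower, beside 10.9% and 8.92% of all genes; without CAR replicate 1 the lower count was 13 (18.8%, beside 14.1% of all genes). The 16 that rose were 8 ligands (Sema6d, Sema5a, Sema7a, Sema4b, Efna5, Efnb1, Slit3 and Slit2) and 8 receptors (Plxna2, Plxna1, Plxnd1, Plxnb1, Nrp1, Nrp2, Robo1 and Unc5c), with log2 differences of 1.64 to 5.19, or 3.13-fold to 36.6-fold. The 5 that fell were Sema3a, Sema3d, Epha6, Robo4 and Unc5cl, by 2.48-fold to 2.80-fold. The median difference over all 69 members was 0.06 log2 units, beside -0.10 over all genes; from CAR array 1 alone it was 0.13 and from CAR array 2 alone -0.03, and after quantile normalization 0.29. After quantile normalization 19 members were higher (27.5%, beside 14.2% of all genes) and 11 lower (15.9%, beside 12.7%), and the 16 higher members were among the 19. The higher share of the members' calls was then 63.3% instead of 76.2%, since more members passed as lower.

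These calls rest on 1 residual degree of freedom. Only the 2 CAR arrays supply a spread, and the fit takes the single PaS array to have the same spread. When 16 intensity units were added before taking logs, limma called 0 of 19938 genes, and thus 0 members (19 higher and 11 lower members at an unadjusted p under 0.05, against 20 and 15 without the addition). The 16 genes that rose then had adjusted p between 0.0539 and 0.116, and 15 members (21.7%, beside 5.2% of all genes) were at least 2-fold higher in both CAR arrays.

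The arrays differed in more than guidance genes. All 10 listed markers of the CAR stroma were higher in CAR cells, with summed intensities of 6882 and 8159 in CAR cells against 600.1 in PaS cells, and Pdgfra, which encodes a protein used to sort PaS cells, was among them (log2 intensity 7.52 and 7.97 against 4.33) and so ran against the label of the PaS array. Blood cell genes ran the other way: 12 of 14 leukocyte genes were lower in CAR cells (summed intensity 599.8 and 710.3 against 3972), including Ptprc, which encodes CD45 (5.11 and 5.01 against 8.27), although the PaS label says CD45-. Neutrophil genes (10 of 14), macrophage genes (4 of 10) and B lymphoid genes (5 of 7) were lower in CAR cells too. So were 5 of 7 genes of Sca-1+ fibroblasts (summed intensity 65.9 and 67.7 against 818.1). Of all these lists, the neutrophil genes had the largest sum on the PaS array, 18214, against 3410 and 3147 in CAR cells. The neutrophil genes S100a8 and S100a9 both read 12.42 on the PaS array, where the highest of all genes read 12.50. Osteoclast genes were mixed: of 8, 1 was lower (Mmp9, 12.5%, beside 6.42% of all genes) and 0 higher. Both CAR arrays lay above the PaS array for 3 of the 8 and below it for 5. Ctsk, among the 3, read 5.75 and 6.72 against 4.33 and did not pass (limma adjusted p = 0.0523). In bulk RNA, fewer cells of a type and less RNA per cell cannot be told apart. Of 14 endothelial genes 5 were lower and 0 higher (0 higher at an unadjusted p under 0.05, summed intensity 155.6 and 136.1 against 380.0). Of 8 Schwann and neural genes 0 passed, with differences of -0.85 to 1.04 log2 units (summed intensity 92.4 and 110.0 against 97.5 on the PaS array). The part of these cells in the members' differences was not tested. The median log2 intensity over genes was 3.74 and 3.75 for the CAR replicates and 3.77 for PaS; without detection calls, values near or below it cannot be told from background.

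**Figure D1:**
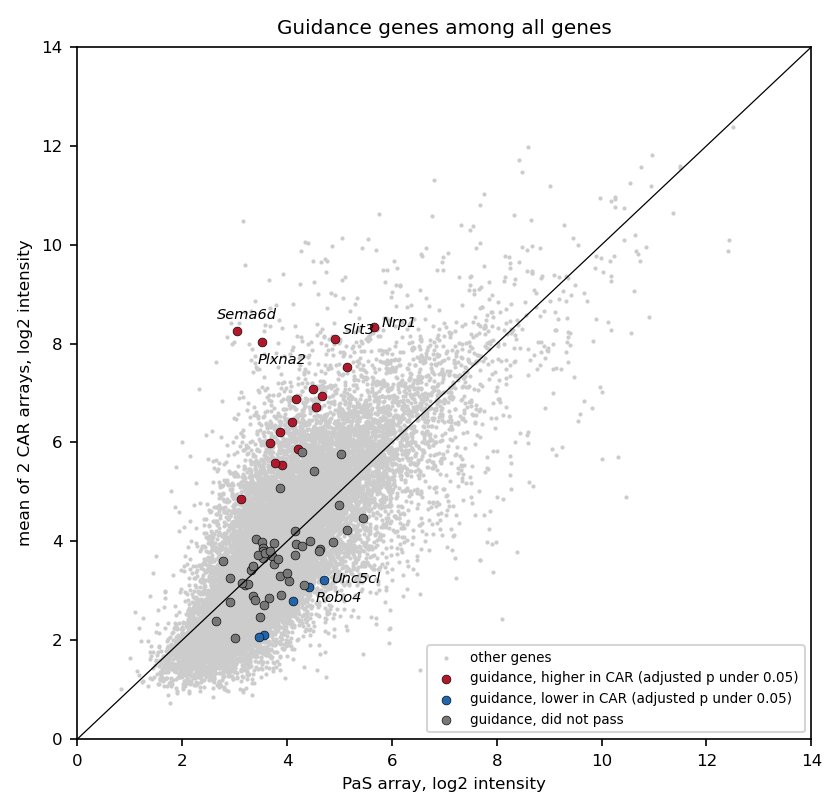
Mean log2 intensity of the 2 CAR arrays (vertical axis) against log2 intensity of the PaS array (horizontal axis) for 19938 genes; grey dots are other genes, filled circles the 69 guidance genes coloured by limma call, and the line marks equality. The 16 red genes lie above the line, Sema6d and Plxna2 the farthest of the 69, and the 5 blue genes lie below it in the dim range, all with CAR means of at most 3.22.

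RefSeq promoter windows (GRCm38.p6, 250 bases before to 50 after a start) are shown for the 4 genes with the largest rise among those with an entry. Being picked for their rise, these genes do not show that members moved together. Capitals mark the GC box GGGCGG on either strand, a letter pattern bound by Sp and KLF factors, and overlapping boxes run together. Sema6d has 2 listed starts.
Sema6d (chr2:124089719-124090018, + strand): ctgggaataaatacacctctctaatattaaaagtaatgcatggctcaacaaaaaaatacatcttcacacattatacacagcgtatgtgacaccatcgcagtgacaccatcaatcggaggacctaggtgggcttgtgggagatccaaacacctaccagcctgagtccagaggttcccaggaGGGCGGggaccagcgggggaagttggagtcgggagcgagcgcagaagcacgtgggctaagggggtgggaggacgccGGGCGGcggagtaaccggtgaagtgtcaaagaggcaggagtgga
Sema6d (chr2:124653331-124653630, + strand): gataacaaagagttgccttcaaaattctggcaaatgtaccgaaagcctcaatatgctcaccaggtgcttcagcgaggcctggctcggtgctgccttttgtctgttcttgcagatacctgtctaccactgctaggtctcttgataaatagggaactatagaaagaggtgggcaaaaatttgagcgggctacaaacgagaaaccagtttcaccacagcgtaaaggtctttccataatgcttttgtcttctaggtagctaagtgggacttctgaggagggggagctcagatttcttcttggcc
Plxna2 (chr1:194619579-194619878, + strand): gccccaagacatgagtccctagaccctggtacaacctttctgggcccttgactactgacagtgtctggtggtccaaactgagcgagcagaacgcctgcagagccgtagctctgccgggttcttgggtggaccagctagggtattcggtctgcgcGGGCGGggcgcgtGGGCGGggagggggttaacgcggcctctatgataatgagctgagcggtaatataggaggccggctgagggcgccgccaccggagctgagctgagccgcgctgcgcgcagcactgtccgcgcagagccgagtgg
Slit3 (chr11:35121206-35121505, + strand): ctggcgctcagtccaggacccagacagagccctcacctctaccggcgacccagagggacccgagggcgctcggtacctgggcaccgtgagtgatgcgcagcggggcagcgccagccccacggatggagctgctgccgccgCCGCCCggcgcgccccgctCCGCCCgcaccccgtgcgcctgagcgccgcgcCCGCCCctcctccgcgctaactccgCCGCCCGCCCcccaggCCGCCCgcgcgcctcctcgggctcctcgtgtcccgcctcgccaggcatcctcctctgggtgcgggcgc
Nrp1 (chr8:128358823-128359122, + strand): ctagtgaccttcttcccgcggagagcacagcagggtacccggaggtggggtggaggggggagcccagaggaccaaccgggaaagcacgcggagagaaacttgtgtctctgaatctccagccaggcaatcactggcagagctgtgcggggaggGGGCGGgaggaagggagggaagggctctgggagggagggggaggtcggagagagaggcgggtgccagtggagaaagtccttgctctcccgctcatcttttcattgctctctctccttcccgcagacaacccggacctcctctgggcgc

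The shown windows differ in composition. The Slit3 window holds 6 GC boxes and is 78.3% G or C, Plxna2 holds 2 and Nrp1 holds 1. For Sema6d the upstream start holds 2 GC boxes, and the downstream one, at 46.7% G or C, holds none. Of the 69 members 60 had an entry, with 76 windows. These windows were richer in G and C than all windows, with medians of 64.2% and 52.7%. A pattern of G and C is likelier in such windows, and a pattern of A and T less likely. The shares below were not adjusted for this composition. A GC box stood in 72.4% of the members' windows and in 35.7% of all 32851 windows; it was in 13 of 17 windows of the members that rose, in 2 of 5 of those that fell and in 40 of 54 of those that did not pass. The shares of the members that rose and of those that did not pass, 76.5% and 74.1%, were close to each other. The EBF pattern was in 3 of the 76 windows, of Sema4b, Plxnb1 and Robo3 (3.9%, beside 0.9% of all windows), and the forkhead pattern GTAAACA in 0 of 76 (3.6% of all). The homeobox pattern TAATTA was in 3 of the 76 (5.3% of all) and the TATA box TATAAA in 2 (13.6% of all), 1 of them in the window of Slit2. Both strands were searched, and a match is a description of letters, not of a bound site.

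Membrane-bound semaphorins held all the semaphorin rises, and class 3, the secreted class, held the falls. None of the 7 class 3 semaphorins rose (0 at an unadjusted p under 0.05) and 2 fell (28.6%). Of 13 membrane-bound semaphorins 4 rose (30.8%) and 0 fell (1 at an unadjusted p under 0.05). Of all genes 8.56% rose and 6.42% fell, so a count of 0 in so small a class is near the share of all genes. The difference between the classes was not tested. After quantile normalization Sema4a and Sema4f, which are membrane-bound, passed as lower, as did Sema3f. Sema6d, a transmembrane semaphorin that binds plexin A1, had log2 intensities of 8.28 and 8.22 in CAR cells, with 3.06 in PaS cells. The CAR arrays nearly coincided, and the PaS value lay below the median of its array, so the size of the fold is uncertain. Its log2 difference was 5.19 ± 0.28 (SE), 36.6-fold (limma adjusted p = 0.0081).

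Sema5a, whose extracellular part carries thrombospondin repeats, read 6.16 and 6.67 in CAR cells and 4.09 in PaS cells. The difference was 2.33 ± 0.34 log2 units (adjusted p = 0.0223), and both CAR arrays lay above the PaS array. Sema7a, the lipid-anchored semaphorin that binds integrins and plexin C1, read 6.87 and 7.01 against 4.67, a difference of 2.27 ± 0.28 (adjusted p = 0.0174). Sema4b, a class 4 transmembrane semaphorin, read 5.54 and 5.55 against 3.90, or 3.13-fold higher (adjusted p = 0.0275). Sema4c, a ligand of plexin B2, had 4.93 and 5.22 against 3.86, at least 2-fold in both arrays, but did not pass (adjusted p = 0.0543). It passed with centring, quantile normalization, a robust prior and the filter on level, at adjusted p of 0.02 to 0.041.

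The remaining membrane-bound semaphorins did not pass. Sema4d and Sema4a, both known from blood cells, gave 3.93 and 4.10 against 4.44, and 4.56 and 3.90 against 5.15. Sema4f had unequal CAR arrays at 3.56 and 2.69 against 4.33. For Sema5b, Sema6a, Sema6b, Sema6c and Sema4g the differences lay between -0.11 and 0.28 log2 units, within 1 SE of 0.

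Among the secreted class 3 semaphorins, Sema3a, a repulsive cue that is also known in bone, read 2.71 and 2.88 in CAR cells and 4.11 in PaS cells. It fell by 1.31 ± 0.29 log2 units (adjusted p = 0.0436). Sema3d read 2.18 and 1.96 against 3.46 and fell by 1.39 ± 0.29 (adjusted p = 0.0402). On the CAR arrays both genes lay below the median of all genes. The low end of the values was itself lower there, with 5th percentiles of 1.87 and 1.69 against 2.40 on the PaS array. All 5 members that fell, Epha6, Robo4 and Unc5cl included, lay below the median level and dropped out of the filter on it, and with 16 units added their adjusted p was 0.0763 to 0.126. Sema3c, Sema3e and Sema3f had differences of -0.96, -1.01 and -0.99 that did not pass, with adjusted p of 0.11, 0.0754 and 0.0773, and Sema3b and Sema3g differed by -0.02 and 0.22.

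**Figure D2:**
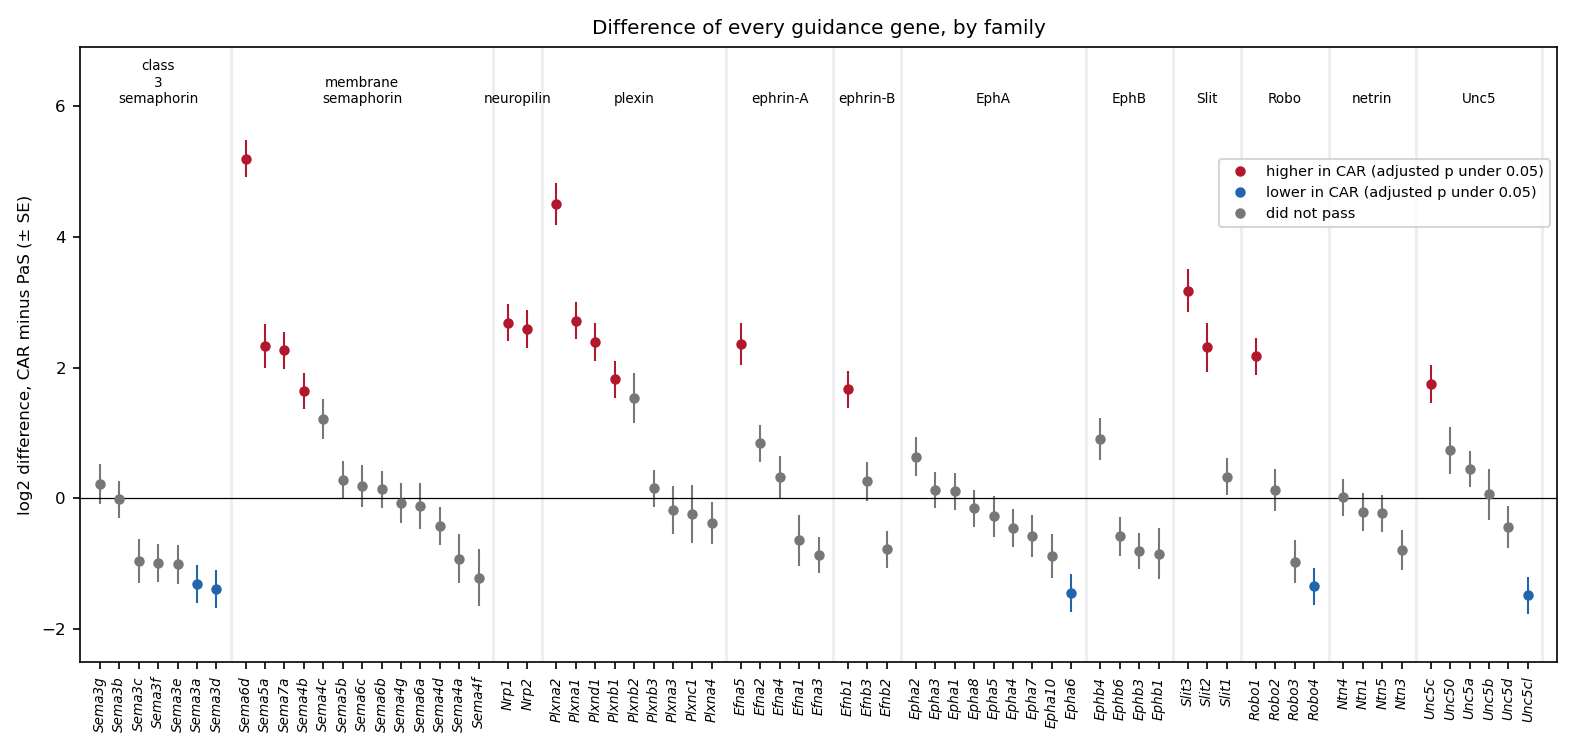
Log2 difference, CAR mean minus PaS (vertical axis; bars are limma's SE), for each of the 69 guidance genes, grouped by family; red and blue mark genes that passed. Sema6d and Plxna2 stand highest at 5.19 and 4.50, both neuropilins and Slit2 and Slit3 lie above 2, and no class 3 semaphorin or Eph receptor is red.

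Semaphorin receptors were mostly higher in CAR cells. Both neuropilins and 4 of 9 plexins (44.4%) rose and 0 fell (0 at an unadjusted p under 0.05), beside 8.56% and 6.42% of all genes. Nrp1, a co-receptor for class 3 semaphorins and for VEGF, had 8.28 and 8.41 in CAR cells, with 5.66 in PaS cells, a difference of 2.68 ± 0.28 log2 units (adjusted p = 0.013). Nrp2 read 7.18 and 7.01 against 4.50, a difference of 2.59 ± 0.29 (adjusted p = 0.014). For both genes the groups were far apart next to the gap between the CAR arrays.

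Plxna2, a plexin that serves class 3 and class 6 semaphorins, read 8.23 and 7.83 in CAR cells and 3.53 in PaS cells. It was 22.7-fold higher (4.50 ± 0.32 log2 units, adjusted p = 0.00914), with a PaS value below the array's median, so that the size of the fold is uncertain here too. Plxna1, the receptor of Sema6d, read 6.85 and 6.92 against 4.17, a difference of 2.72 ± 0.28 (adjusted p = 0.0129). The other class A plexins behaved otherwise: Plxna3 read 3.96 and 3.33 against 3.83, and Plxna4 4.12 and 3.69 against 4.28, and neither passed.

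Plxnd1, which binds Sema3e and is known from blood vessels, read 7.63 and 7.42 against 5.14, 5.22-fold higher (adjusted p = 0.0164). Plxnb1, the receptor of Sema4d, read 5.64 and 5.54 against 3.77, a difference of 1.82 ± 0.28 (adjusted p = 0.0239). With a PaS value just below the array's median, the size of this fold is uncertain as well. Plxnb2 had a wider gap between its CAR values, 5.47 and 6.15, beside 4.28 in PaS cells, and missed the threshold (adjusted p = 0.0555). Like Sema4c, its ligand, it passed in the same 4 alternatives, at adjusted p of 0.0234 to 0.0345. Plxnc1, the receptor of Sema7a that is also known from blood cells, read 4.29 and 5.20 against 4.99, so that the PaS value lay between the CAR arrays. Plxnb3 differed by 0.15 log2 units.

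In the ephrin and Eph system 2 of 8 ligands rose (25%) and 0 fell (2 at an unadjusted p under 0.05). Of 13 receptors 0 rose (1 at an unadjusted p under 0.05) and 1 fell (7.69%). Of all genes 8.56% rose and 6.42% fell, so the receptor counts were near the shares of all genes. After quantile normalization Efna2 also passed as higher and Efnb2 and Epha10 as lower. Efna5, a lipid-anchored ephrin, had 6.43 and 6.01 in CAR cells, with 3.86 in PaS cells, 5.14-fold higher (2.36 ± 0.32 log2 units, adjusted p = 0.0197). Efnb1, a transmembrane ephrin on the X chromosome that can itself signal into the cell that carries it, read 5.82 and 5.93 against 4.21, 3.17-fold higher (adjusted p = 0.0275). Both sets of CAR values lay clear of the PaS value. Efnb2, known from arteries, had 3.89 and 3.79 beside 4.63 in PaS cells and missed the threshold (adjusted p = 0.118), and Efna1, Efna2, Efna3, Efna4 and Efnb3 had differences of -0.86 to 0.84 log2 units that did not pass either.

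Most Eph receptors were dim. Of the 13, 8 lay below the median of all genes in both groups. Epha6 read 2.19 and 2.02 against 3.55 and fell by 1.45 ± 0.29 log2 units (adjusted p = 0.0367), with all values below the array medians; the call was lost with 16 units added (adjusted p = 0.116) and the gene left out by the filter on level. Ephb4, a receptor of Efnb2 known from veins, was the member with the largest positive difference that did not pass among the Eph receptors, at 5.21 and 5.64 against 4.51 (0.91 ± 0.32, adjusted p = 0.114). Epha2 followed at 3.90 and 4.19 against 3.41. Epha10 had 2 probe sets that went opposite ways, with differences of -0.89 for the brighter and 0.23 for the other. Ephb2 was not analysed here.

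In the Slit and Robo system 2 of 3 ligands and 1 of 4 receptors rose, beside 8.56% of all genes. Slit3 had 7.86 and 8.34 in CAR cells, with 4.92 in PaS cells, 9.04-fold higher (3.18 ± 0.33 log2 units, adjusted p = 0.0129). Slit2 read 5.65 and 6.32 against 3.68, a difference of 2.31 ± 0.38 (adjusted p = 0.0264). Its PaS value lay below the array's median, so the size of the fold is uncertain. The CAR arrays differed from each other by less than 1 log2 unit for either gene, and both lay above the PaS array. Slit1, best known from the brain, had 3.28 and 3.22 beside 2.92 and missed the threshold.

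Robo1, a Slit receptor of wide distribution, read 6.66 and 6.79 against 4.55, a difference of 2.17 ± 0.28 (adjusted p = 0.0186), so that ligands and a receptor were higher in the same sorted cells. Robo4, the Robo receptor of endothelium, went the other way at 3.0 and 3.16 against 4.43 and fell by 1.35 ± 0.29 (adjusted p = 0.0411, or 0.0923 with 16 units added). Of the 14 endothelial genes 5 fell with it, among them Cdh5 at 2.91 and 3.18 against 6.28 and Emcn at 2.39 and 2.53 against 5.59, and 9 did not pass; their part in the Robo4 difference was not tested. Robo2 and Robo3 did not pass, at 3.87 and 3.46 against 3.53 and at 3.14 and 2.68 against 3.88.

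None of the 4 netrins passed (0 higher and 1 lower at an unadjusted p under 0.05), although Ntn3 passed as lower after quantile normalization. With 8.56% of all genes higher and 6.42% lower, a count of 0 among 4 genes is near the share of all genes. Ntn1, the founding member, read 3.67 and 3.41 against 3.75, and Ntn4, a netrin of basement membranes, 3.23 and 3.10 against 3.15. Ntn5 and Ntn3 read 3.94 and 3.94 against 4.17, and 3.63 and 3.99 against 4.60. Ntn1 and Ntn4 lay below the median of each array.

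Of their receptors, Unc5c read 4.76 and 4.97 in CAR cells and 3.12 in PaS cells, a difference of 1.75 ± 0.29 log2 units (adjusted p = 0.0268). The PaS value lay below the array's median, which leaves the size of the fold uncertain. Unc5a, Unc5b and Unc5d had differences of 0.45, 0.06 and -0.44 and did not pass. The symbols Unc50 and Unc5cl begin in the same way but do not name netrin receptors: Unc50 encodes a Golgi protein, and Unc5cl a death domain protein related to Unc5c. Unc50 read 6.05 and 5.46 against 5.02 and did not pass, and Unc5cl read 3.22 and 3.22 against 4.70 (fell by 1.48 ± 0.28, adjusted p = 0.0333, or 0.0763 with 16 units added). Without both, the counts were 16 higher and 4 lower.

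**Figure D3:**
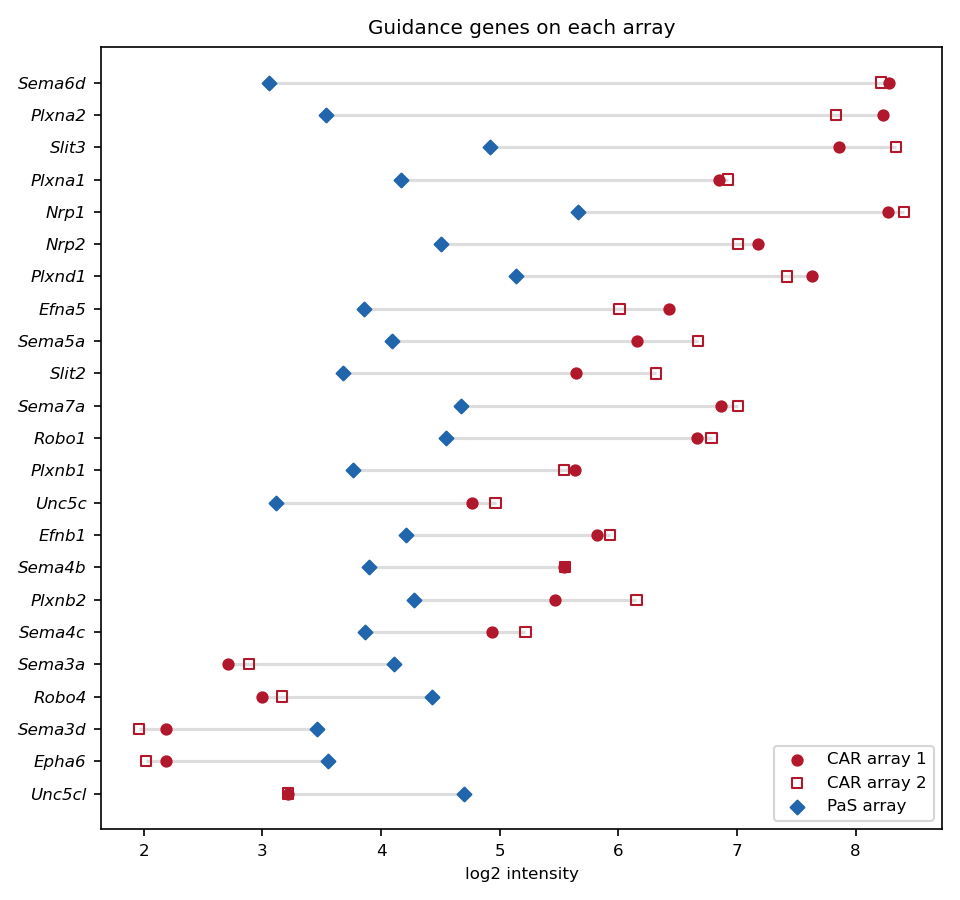
Log2 intensity (horizontal axis) on CAR array 1 (filled circles), CAR array 2 (open squares) and the PaS array (diamonds) for the 23 members named by rule, ordered by their difference; grey lines span the lowest to the highest value. In the upper 18 genes both CAR arrays lie to the right of the PaS array, from 8.28 and 8.22 against 3.06 for Sema6d, and in the lower 5 both lie to its left.

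The CAR arrays lay close to each other for most members. Over the 69 genes they differed by a median of 0.26 log2 units, beside 0.27 over all genes, and 56 members differed by at most 0.5. The widest gap was 0.91 for Plxnc1. With either CAR array alone, 19 members (27.5%) were at least 2-fold above the PaS array, beside 12.7% of all genes with CAR array 1 and 16.2% with CAR array 2. At least 2-fold below it were 6 members (8.7%, beside 11.6% of all genes) with CAR array 1 and 13 (18.8%, beside 14.1%) with CAR array 2. The share below was larger with CAR array 2 for all genes too.

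Downstream of these receptors lie adaptors, kinases, regulators of small GTPases and actin-binding proteins. A list of 73 such effectors and co-receptors, chosen by known role but with earlier results of these data known, had 68 measured genes. Of these 14 rose (20.6%, beside 8.56% of all genes) and 5 fell (7.35%, beside 6.42%); after centring or quantile normalization 22 rose (32.4%, beside 12.3% and 14.2%). The listed genes had a median difference of 0.45 log2 units, beside -0.10 over all genes. They were also bright, with 49 of the 68 at or above the median level of all genes. Of all genes at or above that level 16.6% rose and 4.06% fell, with a median difference of 0.37. The part of level in the effector counts was not tested. Enah, an actin regulator that binds guidance receptors, read 7.17 and 7.25 against 4.39, 7.06-fold higher (adjusted p = 0.0125). Mical3, of the family of actin-oxidising enzymes that act below plexins, read 7.10 and 6.81 against 4.25, 6.51-fold higher (adjusted p = 0.014). Both lay clear of the PaS array on either CAR array.

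Usp33, a deubiquitinase that acts on Robo1, read 6.96 and 6.53 against 4.34 (adjusted p = 0.0195). The Srgap family, GTPase-activating proteins that bind Robo receptors, was split: Srgap2 rose, at 6.01 and 5.46 against 3.58 (adjusted p = 0.0257). Named after their values were seen, Srgap1 fell, at 3.63 and 3.94 against 5.20 (adjusted p = 0.0419), and Srgap3 missed the threshold with a difference of 1.47 ± 0.38 log2 units (adjusted p = 0.0595). Flrt2, a membrane protein that binds Unc5 receptors, read 5.35 and 5.81 against 3.45 (adjusted p = 0.0239). Rras, a GTPase that plexins inactivate, read 6.61 and 7.55 against 5.10 (adjusted p = 0.0474), and Cdk5, a kinase, 4.63 and 4.69 against 2.71 (adjusted p = 0.0217). In the other direction Vav3, a guanine nucleotide exchange factor that is also active in blood cells, read 2.56 and 2.07 against 4.40 and fell by 2.08 ± 0.33 log2 units (adjusted p = 0.0257). The netrin receptors outside the Unc5 family, named here after their values were seen, diverged: Neo1 rose, at 6.76 and 7.55 against 5.29 (adjusted p = 0.0438), and Dcc fell, at 2.65 and 2.35 against 3.82 (adjusted p = 0.0473), all 3 of its values being low.

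**Figure D4:**
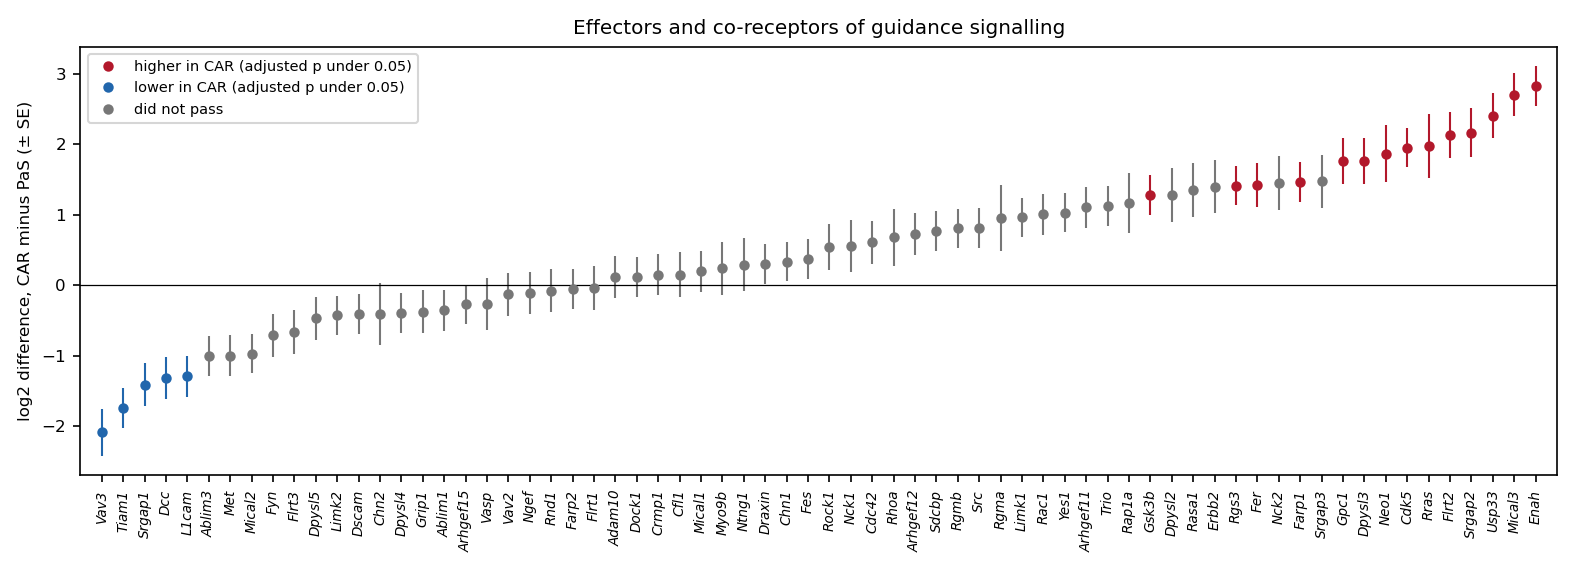
Log2 difference, CAR mean minus PaS (vertical axis; bars are limma's SE), for 68 effectors and co-receptors of guidance signalling in rising order; red and blue mark genes that passed. The 14 red genes end with Enah at 2.82, and the 5 blue genes begin with Vav3 at -2.08.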

How the data were processed

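The files hold 1 intensity per probe set and array on a linear scale, as deposited by the authors; the tools named in the submitters' processing notes are RMA and Affymetrix Expression Console, with versions and genome build not given in the sources used here. RNA was amplified from small inputs, per the labels' protocols. Log2 was taken with no pseudocount. Of 35556 probe sets, 21789 carried 1 gene symbol; symbols were updated through gene identifiers, and the brightest probe set stood for each of 19938 genes.

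lmFit and eBayes of limma 3.58.1 (R 4.3.3) compared CAR with PaS in a two-sided test without covariates; p-values were adjusted by Benjamini-Hochberg across the whole table, at a threshold of 0.05. SE is limma's moderated standard error (prior SD 0.25, prior degrees of freedom 4.20). The fit was also run on simulated data. Such a run cannot show whether the real PaS sample varies as the CAR replicates do, and no conclusion is drawn from it here. The number of arrays limits the precision. The design text takes the CAR replicates from 2 mice, and the pooled PaS sample gives no spread of its own.

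The members and lists were chosen with earlier results of these data known. Named with all values are members past the threshold, those at least 2-fold apart in both CAR arrays with the higher mean at or above the median gene, and those in the brightest decile of either group (23 in all), with the 8 listed effectors of largest difference; other members are named by family. Alternatives were centring, quantile normalization, a pseudocount of 16, a filter on level, the mean of probe sets, an intensity trend or robust prior in eBayes, each CAR array left out, and, added after seeing the data, the members without Unc50 and Unc5cl.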

Additional observations from a re-analysis of the deposited data

How the results depend on the processing

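Direction was kept by all 23 named members under each alternative that kept them, but most alternatives could not have reversed it. In each of the 23 both CAR arrays lay on the same side of the PaS array. Leaving out either CAR array or adding a pseudocount could thus not change the direction. The mean of probe sets, a trend, a robust prior and the filter on level left the differences unchanged, since each of these genes has 1 probe set. Centring added the same small amount to every difference, since the array medians were 3.74, 3.75 and 3.77. The smallest of the 23 differences was 1.21 log2 units, for Sema4c, so centring could not reverse one either. Only quantile normalization could have changed a direction. The 23 were named partly for their differences in these data. The 16 higher members were the same genes under centring, quantile normalization, the filter on level, the mean of probe sets, a trend and a robust prior, with 0 to 3 more added. With a pseudocount of 16, limma called 0 members higher, 0 lower, and 0 effectors in either direction (19 and 11 members and 23 and 7 effectors at an unadjusted p under 0.05), and 0 members were at least 2-fold lower; the moderation then had 1.76 prior degrees of freedom instead of 4.20, and the smallest adjusted p over all genes was 0.0539. The filter on level, which tests 9969 genes and 34 members, takes the mean over 2 CAR arrays and 1 PaS array and so favours genes high in CAR cells. It left 0 members lower, 0 at least 2-fold lower, 3 effectors lower and a median difference of 1.37, beside 0.37 over all genes. Of all genes it kept, 20.7% then passed as higher and 5.12% as lower. Of the 16 higher members, 5 lay below the PaS median and stayed in through their CAR values. Quantile normalization gave 11 members lower, 22 effectors higher and a median of 0.29, while 14.2% of all genes passed as higher and 12.7% as lower, instead of 8.56% and 6.42%, and the median of all genes moved from -0.10 to 0.03; centring gave 22 effectors higher, beside 12.3% of all genes. Single CAR arrays gave 19 members at least 2-fold higher with either, 6 to 13 at least 2-fold lower and medians of -0.03 to 0.13; limma could not be fitted there, with no residual degrees of freedom. No paired analysis was possible because the groups come from different mice, no label pairs their arrays and the PaS group has 1 array. Dim signal limits every fold against a value near or below the array median.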
